A study of Homo sapiens with 8 samples.

Results

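The libraries labelled SUIT2 shScr replicate 3 and shEN1 #1 replicate 1 lay together at the far end of the second principal component, and they were compared with 4 libraries labelled shScr replicate 1, shScr replicate 2, shEN1 #1 replicate 2 and shEN1 #2 replicate 2. The grouping thus joins 2 of the 8 libraries of the series across their labels, and it was chosen by looking at the same counts. SUIT2 is a human pancreatic ductal adenocarcinoma (PDA) cell line, transduced here with a lentiviral scramble shRNA (shScr) or with 1 of 2 shRNA constructs against EN1 (shEN1 #1 and shEN1 #2) and selected with puromycin. Cells of every library carried such a vector, so no untransduced cells were compared, and the sources used here do not say whether the replicates were separate cultures. The 8 samples divide into 4 shScr samples and 2 for each construct, and both the pair and the 4 comparison libraries held equal numbers of each arm (1 and 1, and 2 and 2). The other 2 libraries, labelled shScr replicate 4 and shEN1 #2 replicate 1, stood apart on the first component. They were not part of the difference between the pair and the 4, but their values are given beside the pair's for many genes. They did enter the filter, the scaling, the components, the ranks over all 8 libraries and an alternative fit of the labels.

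PDA cells express epithelial keratins and junction proteins and, to a varying degree, mesenchymal genes such as vimentin. Integrin α6 and integrin β4 join in the hemidesmosome, the anchor that ties epithelial cells to laminin in the basement membrane. MXD4 belongs to the MXD proteins, which pair with MAX in place of MYC and repress MYC target genes. Interferon-stimulated genes are the antiviral genes that interferon signalling switches on together, and replication-dependent histone genes are normally transcribed in S phase into messages without a poly(A) tail.

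Library totals lay between 33423590 and 37810604 counts with TMM factors between 0.962 and 1.07, and no library was a copy of another (chi-square of at least 10.7 per gene between any 2 libraries). The first component held 44.4% of the variance of log2 CPM (CPM, the read counts relative to library size after TMM scaling) and the second 17.5%. On the second component the pair scored -39.3 (shScr replicate 3) and -30.6 (shEN1 #1 replicate 1). The nearest other library, shScr replicate 2, scored 2.07, and shScr replicate 1 scored 29.4 at the opposite end. On the first component the pair scored -9.15 and -14.6, next to the 4 comparison libraries (-27.6 to -20.1) and far from the other 2 (59.2 and 62.1). The root-mean-square difference of log2 CPM over 14333 genes was 0.512 between both libraries of the pair, within the range among the 4 comparison libraries (0.488 to 0.556). Across the sets it was 0.553 to 0.688. By the chi-square per gene the libraries of the pair were not nearest each other, at 51.6. Here shScr replicate 3 was closer to shEN1 #2 replicate 2 (41.4), and shEN1 #1 replicate 1 was closer to shScr replicate 2 (47.4). The other chi-square values across the sets were larger, from 54.9 to 91. On the third component the pair lay apart, at 13.7 (shScr replicate 3) and -29.7 (shEN1 #1 replicate 1), against -23.4 to 26.6 in the 4 comparison libraries. Within the 4, shScr replicate 1 and shEN1 #1 replicate 2 (29.4 and 23 on the second component) lay apart from shScr replicate 2 and shEN1 #2 replicate 2 (2.07 and 5.03).

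**Figure D1:**
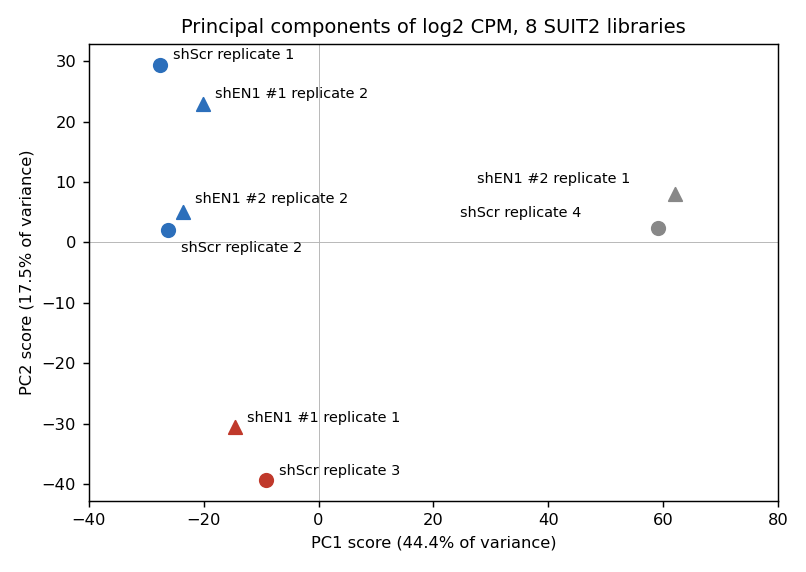
Scores of the 8 libraries on the first (x axis) and second (y axis) principal components of log2 CPM, with circles for shScr, triangles for shEN1, red for the pair, blue for the 4 comparison libraries and grey for the other 2. The pair sits at -39.3 and -30.6 on the second component, below the next library at 2.07.

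A gene is called higher or lower here when both libraries of the pair lay outside the range of the 4 comparison libraries in CPM and the mean log2 CPM differed by at least 1.5-fold. Because the rule grouped the libraries on these counts, the calls are a description and carry no test. Of 14333 genes, 798 were higher in the pair (5.57%) and 418 were lower (2.92%). At 2-fold there were 386 higher (2.69%) and 107 lower (0.747%). Without the fold threshold, 1899 genes lay above and 1732 below the 4 comparison libraries. Of the 798 higher genes, 395 were also above both other libraries, hence highest of all 8, and of the 418 lower genes 249 were lowest of all 8. The count depended on having both libraries of the pair, since 1468 genes were higher and 750 lower without shEN1 #1 replicate 1, and 883 were lower without shScr replicate 3.

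Genes with low counts made up much of the higher side. The median of the mean CPM over the 6 libraries was 2.33 for genes called higher, 12 for genes called lower and 23.2 for all genes. In the quintile of genes with the lowest CPM 15% were higher, against 1.05% in the quintile with the highest, while the lower side changed less, from 4.33% to 2.48%. Among genes with a mean of at least 5 CPM, 258 were higher and 269 lower. Long non-coding RNAs were called higher in 66 of 619 cases (10.7%), against 663 of 12715 protein-coding genes (5.21%). From the lowest to the highest quintile of GC content, the share called higher went from 3.5% to 6.41%.

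ITGA6 (Entrez 3655, chr2:173292082-173371187 in GRCh37) encodes integrin α6. It had 570.0 CPM in shScr replicate 3 and 646 CPM in shEN1 #1 replicate 1, against 1219, 1184, 1262 and 1196 CPM in shScr replicates 1 and 2, shEN1 #1 replicate 2 and shEN1 #2 replicate 2. The pair was 2.0-fold lower than the 4 comparison libraries (log2 difference -1.0, mean of the 4 1215 ± 34.7 CPM, SD, n = 4). Both sets were narrow and did not overlap, and the other 2 libraries had 519 and 562 CPM, below the pair. MXD4 (Entrez 10608, chr4:2249159-2263836) had 37.5 CPM in shScr replicate 3 and 22.4 CPM in shEN1 #1 replicate 1, against 8.44, 9.49, 8.15 and 7.99 CPM in the 4 comparison libraries. This was 3.4-fold higher in the pair (log2 difference 1.77), and again the other 2 libraries were on the pair's side, at 35.9 and 32.1 CPM. Of the 12 measured members of the MYC, MAX and MXD network, MXD4 alone was called (8.33%, near the 5.57% of all genes), and the median log2 difference of the network was 0.04. Of 32 ribosome biogenesis genes, many of them MYC targets, 26 lay below 0 (median -0.11, against 0.00 for all genes and -0.036 for the highest CPM quintile). In that list 0 were called in either direction, but few abundant genes were called at all (1.05% higher and 2.48% lower in that quintile).

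EN1 (Entrez 2019, chr2:119599747-119605224), the homeobox factor that the shRNAs target, did not separate the sets. It had 172 counts in shScr replicate 3 and 206 in shEN1 #1 replicate 1, against 136, 167, 184 and 218 in shScr replicates 1 and 2, shEN1 #1 replicate 2 and shEN1 #2 replicate 2. In CPM the pair (4.94 and 5.77 CPM) lay inside the range of the 4 comparison libraries (4.1 to 6.7 CPM), and within both sets the libraries labelled shEN1 held more EN1 than those labelled shScr. The other 2 libraries held less EN1 than any of these 6, at 94 counts in shScr replicate 4 and 53 in shEN1 #2 replicate 1 (2.51 and 1.35 CPM), where the level was lower under the shEN1 label. The targeted gene thus goes against the labels in the 6 libraries compared and with them in the other 2, and every library is named below only by its label.

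Among genes with a mean of at least 5 CPM, the 15 largest differences on the higher side included genes that were also raised in the other 2 libraries. RGS4, a GTPase activator that damps G-protein signalling, had 9.53 and 15.3 CPM in the pair against 1.23 to 1.99 CPM in the 4 comparison libraries (7.65-fold). EPHA7, an ephrin receptor, had 21.9 and 23.2 CPM against 2.85 to 4.75 CPM (6.21-fold). For both genes the other 2 libraries were higher still, at 42.7 and 43.5 CPM for RGS4 and 36.1 and 43.1 CPM for EPHA7. LRP1, an endocytic receptor, followed with 58.1 and 23.2 CPM against 6.21 to 15.6 CPM, and NXPH4 with 13.5 and 8.29 CPM against 2.03 to 4.73 CPM. The other 2 libraries had 47.9 and 42 CPM of LRP1 and 10 and 9.09 CPM of NXPH4. The chemokine receptor CXCR4 had 9.15 and 16.2 CPM against 2.32 to 3.47 CPM, with 7.42 and 7.98 CPM in the other 2 libraries.

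Another 5 of the leading genes were high in the pair and lowest in the other 2 libraries. SERPINE2, a secreted inhibitor of serine proteases, was the most even of these. It had 335 CPM in shScr replicate 3 and 330.4 CPM in shEN1 #1 replicate 1, against 115, 102, 107 and 111 CPM in the 4 comparison libraries and 35.5 and 34.7 CPM in the other 2. The pair was thus 3.06-fold above the 4, whose mean was 109 ± 5.59 CPM (SD, n = 4). TNFRSF11B, the decoy receptor osteoprotegerin, had 37.6 and 31.1 CPM in the pair, 7.74 to 11.9 CPM in the 4 and 4.17 and 3.35 CPM in the other 2. The retinol dehydrogenase DHRS9 had 17.2 and 19.5 CPM against 2.53, 7.9, 1.41 and 6.08 CPM, a wide range among the 4. OLFM4, a secreted glycoprotein of intestinal stem cells, had 15.5 and 10 CPM against 1.18 to 4.73 CPM, and the urea transporter SLC14A1 had 47.4 and 44.6 CPM against 7.94 to 22.2 CPM. In the other 2 libraries these values were 0.160 and 0.406 CPM for DHRS9, 0.534 and 0.0508 CPM for OLFM4 and 6.3 and 6.71 CPM for SLC14A1. For these genes and for SPP1, the matrix phosphoprotein osteopontin (51.3 and 49.9 CPM against 11.1 to 22.4 CPM), the pair was the highest of all 8 libraries.

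On the lower side, 9 of the 15 leading genes were low in the pair, while the other 2 libraries were near the 4 comparison libraries or above them. PSMD10, the oncoprotein gankyrin, had 10.8 CPM in shScr replicate 3 and 15.3 CPM in shEN1 #1 replicate 1, against 46, 54.4, 42 and 45.3 CPM in the 4 and 58.3 and 58 CPM in the other 2. It was 3.62-fold lower in the pair, with a mean of 46.9 ± 5.27 CPM (SD, n = 4) in the 4. The tetraspanin CD151, which binds laminin receptors such as integrin α6β4, had 94.1 and 68.4 CPM against 251, 253, 292 and 309 CPM (3.43-fold lower) and 421 and 372 CPM in the other 2. CABLES2 had 11.9 and 10.3 CPM against 31.8 to 35.1 CPM in the 4, with 35.3 and 31.6 CPM in the other 2, so that the 6 libraries outside the pair lay close together. The same layout was seen for TYW3, an enzyme of tRNA modification (9.9 and 12.5 CPM against 26.9 to 37.8 CPM), and for the deubiquitinase STAMBPL1 (23.8 and 30.9 CPM against 69.5 to 76.5 CPM). DSCAML1, RAB11FIP1, INPP5A and DENND6A completed this group, with the pair between 2.32-fold and 2.5-fold lower.

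The other 6 leading genes were low in the other 2 libraries as well. FA2H, which hydroxylates fatty acids for sphingolipids, had 15 and 16.2 CPM in the pair against 78, 48.5, 91 and 54.2 CPM in the 4 (4.21-fold lower) and 20.1 and 21.2 CPM in the other 2. The membrane dipeptidase DPEP1 had 44.2 and 23.2 CPM against 99.4 to 119.6 CPM, and the aldehyde dehydrogenase ALDH3A1 had 46.8 and 21.3 CPM against 164, 52.1, 172 and 68.1 CPM. For ALDH3A1 the gap to the nearest comparison library was small, since shScr replicate 2 had 52.1 CPM and shScr replicate 3 had 46.8 CPM. FGFBP1, a carrier of fibroblast growth factors, had 7.52 and 11.2 CPM against 17 to 39.9 CPM, TSPAN18 had 23.7 and 24.5 CPM against 45.8 to 82.8 CPM, and GAL3ST1 had 6.89 and 3.47 CPM against 9.19 to 18.2 CPM.

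**Figure D2:**
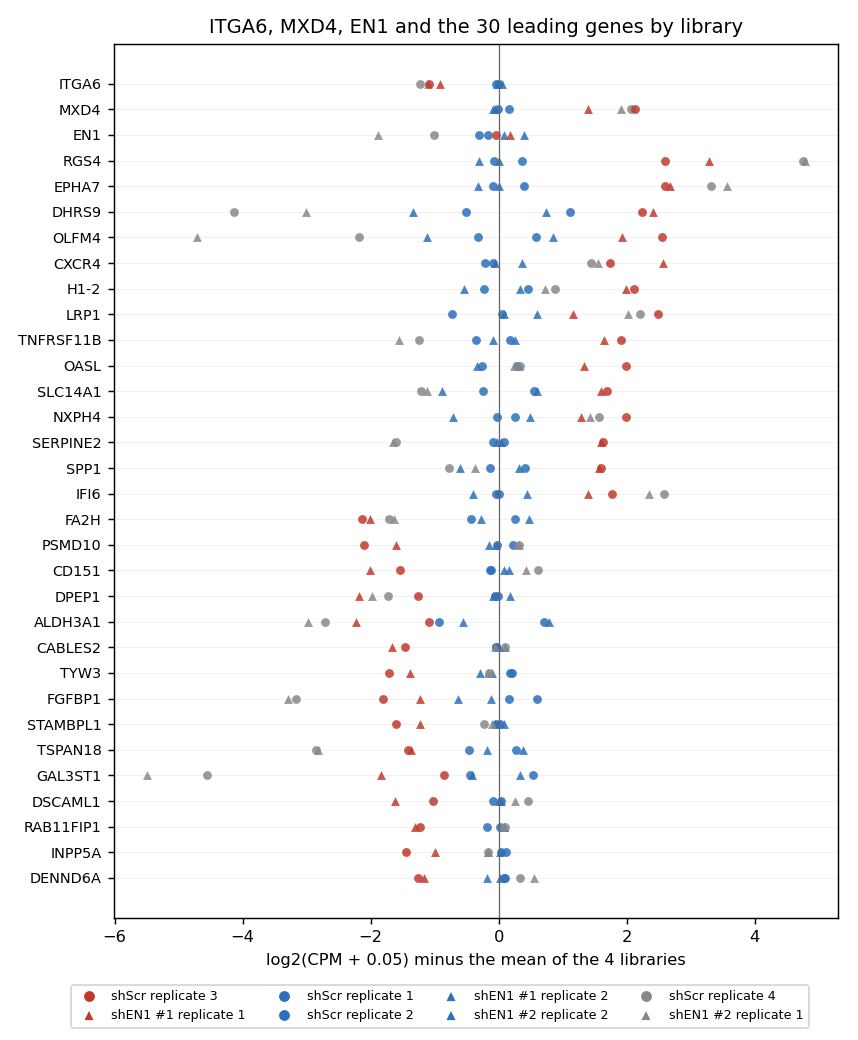
Level of ITGA6, MXD4, EN1 and the 30 leading genes in each library, as log2(CPM + 0.05) minus the mean of the 4 comparison libraries (x axis), with red for the pair, blue for the 4 and grey for the other 2. The grey points lie on the far side of the red ones for RGS4 and EPHA7, on the opposite side of the blue ones for SERPINE2 and among the blue ones for CABLES2.

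Interferon-stimulated genes were among the gene groups with the most higher calls. Of 42 measured members 14 were higher (33.3%, against 5.57% of all genes) and 0 were lower, 36 lay above 0, and the median log2 difference was 0.44. OASL, an antiviral protein related to the 2′-5′-oligoadenylate synthetases, had 64.3 CPM in shScr replicate 3 and 41 CPM in shEN1 #1 replicate 1, against 13.5, 19.8, 12.9 and 20.2 CPM in the 4 comparison libraries (3.16-fold higher). SAMD9L reached 5.22 and 5.91 CPM against 1.18 to 2.29 CPM, and IFI6 15.9 and 12.3 CPM against 3.5 to 6.33 CPM. The synthetase OAS2 had 24 and 23.2 CPM against 8.11 to 10.7 CPM. IFIT1, which binds foreign RNA, had 23.1 and 24.1 CPM against 7.3 to 11.4 CPM, and IFIT3 had 42.7 and 36.4 CPM against 20.3 to 28.2 CPM. ISG15, a ubiquitin-like modifier, had 107 and 88.5 CPM against 53 to 61.6 CPM.

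The transcription factors of the pathway were not all higher. STAT2 had 39.3 and 33.9 CPM against 16.6 to 18.4 CPM (2.09-fold higher), whereas IRF7 had 15 and 11.7 CPM against 11.7 to 17 CPM, an overlap. MX1, a classical interferon target, also overlapped, with 5.51 and 5.88 CPM against 4.5 to 8.12 CPM. The other 2 libraries did not share the level of most members, since their median log2 difference from the 4 was -0.07. Among the exceptions were IFI6 and STAT2, at 28 and 23.8 CPM for IFI6 and 33.4 and 31.2 CPM for STAT2 in those libraries.

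The promoters of 4 of the higher members are shown because they hold the interferon-stimulated response element, searched as GAAANNGAAA on both strands. Each stretch is the 200 bases before the RefSeq start of the gene, 5′ to 3′ in the direction of transcription, from GRCh38.p14, with matches in capitals. They lie at chr1:27672193-27672392 (minus strand) for IFI6, chr10:89392423-89392622 (plus strand) for IFIT1, chr10:89327797-89327996 (plus strand) for IFIT3 and chr1:1013297-1013496 (plus strand) for ISG15.
IFI6: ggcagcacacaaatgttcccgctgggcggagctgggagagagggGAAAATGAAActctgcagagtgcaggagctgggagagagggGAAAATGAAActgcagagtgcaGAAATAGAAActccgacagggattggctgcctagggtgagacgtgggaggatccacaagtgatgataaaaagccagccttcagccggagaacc
IFIT1: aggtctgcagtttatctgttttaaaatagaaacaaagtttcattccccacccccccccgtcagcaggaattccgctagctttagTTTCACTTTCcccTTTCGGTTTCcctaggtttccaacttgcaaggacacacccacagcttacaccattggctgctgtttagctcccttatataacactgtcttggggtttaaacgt
IFIT3: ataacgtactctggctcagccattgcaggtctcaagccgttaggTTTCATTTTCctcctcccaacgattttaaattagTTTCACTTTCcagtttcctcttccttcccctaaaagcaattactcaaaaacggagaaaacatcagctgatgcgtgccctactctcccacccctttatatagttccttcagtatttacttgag
ISG15: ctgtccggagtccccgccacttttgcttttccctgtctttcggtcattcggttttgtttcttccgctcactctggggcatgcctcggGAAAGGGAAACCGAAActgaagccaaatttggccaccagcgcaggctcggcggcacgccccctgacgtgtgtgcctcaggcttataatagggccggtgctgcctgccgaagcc
IFI6 holds 3 matches and the others 2 each, those of ISG15 overlapping each other and those of IFIT1 and IFIT3 reading on the opposite strand. Among 27305 RefSeq promoters of 250 bases before to 50 after the start, 3.65% hold a match. Of the 42 interferon members 33 had a promoter in the table and 20 of these held one (60.6%). The share was like in members that were called higher (6 of 10) and in those that were not (14 of 23). Of all measured genes with a promoter 286 of 10915 held it (2.62%), of those called higher 24 of 572 (4.20%), and of those called lower 7 of 278 (2.52%).

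Replication-dependent histone genes gave the highest share of calls of any group with at least 8 measured members. Of 18 measured members 10 were higher (55.6%, against 5.57% of all genes and 15% of those in the lowest CPM quintile) and 0 lower. The median log2 difference was 0.90, and 11 of the 29 members listed did not pass the filter on low counts. H1-2, a linker histone, had 48 CPM in shScr replicate 3 and 44 CPM in shEN1 #1 replicate 1, against 9.4, 15.2, 7.53 and 13.9 CPM in the 4 comparison libraries (4.14-fold higher). H2BC12 had 105 and 126 CPM against 45.3 to 68.2 CPM. H3C10 had 1.98 and 1.06 CPM against 0.277 to 0.593 CPM, and H4C8 had 1.03 and 0.952 CPM against 0.211 to 0.588 CPM, both at low levels. Without the filter the median of the list was 0.60. The libraries were made from mRNA captured with polyT-oligo beads, which capture these messages only as far as they carry a poly(A) tail, and histone copies of near-identical sequence can share reads. In the other 2 libraries the histone median was 0.58 above the 4. Of 36 genes of S phase and mitosis 0 were called in either direction (against 5.57% higher and 2.92% lower among all genes), with a median of -0.04. The largest differences in that list were those of the transcription factor E2F2 (16.8 and 12.9 CPM against 8.71 to 11.1 CPM), the thymidylate synthase TYMS (96.7 and 96.2 CPM against 67.9 to 71.7 CPM) and the mitotic kinesin KIF20A (169 and 175 CPM against 129.6 to 151 CPM). These values did not overlap but differed by less than 1.5-fold.

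**Figure D3:**
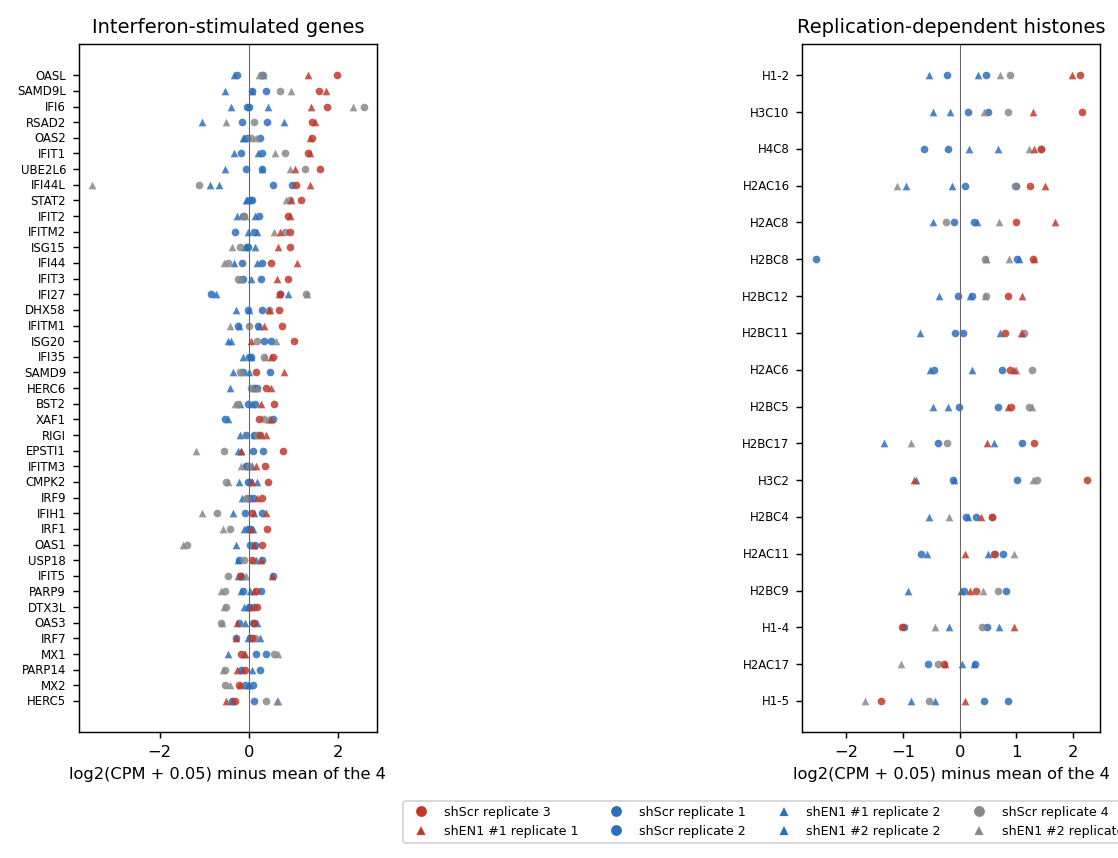
Level of 41 of the 42 measured interferon-stimulated genes (left) and of each measured replication-dependent histone gene (right) by library, as log2(CPM + 0.05) minus the mean of the 4 comparison libraries, with red for the pair, blue for the 4 and grey for the other 2. Of the interferon genes 14 of 42 and of the histone genes 10 of 18 were called higher, with the red points to the right of the blue ones.

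Epithelial adhesion genes leaned the other way. In the hemidesmosome and laminin list 5 of 15 measured members were lower (33.3%, against 2.92% of all genes), 1 was higher, and the median was -0.30. Beside ITGA6 and CD151, ITGB4, the partner of integrin α6, had 905 and 636 CPM against 1037 to 1611 CPM (1.77-fold lower). The laminin chain LAMA3 had 332 and 473 CPM against 614 to 849 CPM, whereas the chain LAMB3 overlapped (193 and 255 CPM against 177 to 382 CPM). COL17A1, a transmembrane collagen of the hemidesmosome, overlapped as well, at 600.4 and 585 CPM against 400.2 to 641 CPM. KRT5, a basal keratin, was the higher member, but at 1.26 and 1.06 CPM against 0.277 to 0.904 CPM.

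All 8 epithelial identity genes checked (EPCAM, CDH1, KRT7, KRT8, KRT18, KRT19, ELF3 and GRHL2) had a log2 difference below 0, with a median of -0.48, although KRT7 alone was called lower, at 533 and 568 CPM against 847 to 1079.8 CPM and 198 and 192 CPM in the other 2 libraries. EPCAM, the epithelial cell adhesion molecule, had 366 and 401 CPM against 525 to 589 CPM, and E-cadherin (CDH1) had 178 and 157 CPM against 225 to 256 CPM. Neither overlapped, but both differences were under 1.5-fold. In the other 2 libraries the same 8 genes had a median of -1.09. Of 24 cell junction genes 3 were lower (12.5%, against 2.92% of all genes) and 0 higher. These were the tight junction proteins CLDN7 (77 and 61.6 CPM against 112 to 149 CPM) and CLDN3 (19 and 14.3 CPM against 23.4 to 29.7 CPM) and the desmosomal cadherin DSC2 (7.6 and 7.06 CPM against 10.2 to 14.4 CPM). CLDN7 was lower still in the other 2 libraries, at 25.8 and 18.1 CPM. Keratins were abundant in the pair, with KRT8 at 6279 and 6094 CPM.

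Mesenchymal markers were called in both directions. VIM, the intermediate filament vimentin, had 575 CPM in shScr replicate 3 and 809 CPM in shEN1 #1 replicate 1, against 1759, 1123, 1916 and 1217 CPM in the 4 comparison libraries and 2241 and 2482 CPM in the other 2. It was thus 2.15-fold lower in the pair and lowest of all 8. The actin-binding protein CALD1 was 5.0-fold higher (4.85 and 5.69 CPM against 0.706 to 1.21 CPM, with 7.48 and 6.5 CPM in the other 2), and fibronectin (FN1) was 2.35-fold higher at 1.12 and 1.4 CPM against 0.331 to 0.824 CPM. Of 12 measured members 3 were higher (25%, against 5.57% of all genes and 15% of those in the lowest CPM quintile) and 1 lower (8.33%, against 2.92%). Among collagens and matrix proteins 7 of 19 were higher (36.8%, against 5.57% of all genes and 15% of those in the lowest CPM quintile) and 1 lower, with a median of 0.40. Fibrillin (FBN1) had 82.6 and 61.3 CPM against 30.8 to 43 CPM, CCDC80 had 4.45 and 3.14 CPM against 0.422 to 0.647 CPM, and COL12A1 had 4.28 and 4.37 CPM against 0.944 to 2.06 CPM. COL5A1, a chain of a fibrillar collagen, was barely detected, at 0.660 and 0.896 CPM against 0.0539 to 0.542 CPM.

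Signalling lists gave calls in both directions. Of 26 genes of ERK feedback and output 5 were lower (19.2%, against 2.92% of all genes) and 1 higher (3.85%, against 5.57%). The higher member was DUSP16, a MAP kinase phosphatase, at 12.5 and 13.1 CPM against 4.61 to 7.07 CPM (2.18-fold) and 7.4 and 6.27 CPM in the other 2 libraries, so that the pair was highest of all 8. CCND1, the cyclin that drives entry into the cell cycle, had 321 and 325 CPM against 694, 554, 791 and 656 CPM (2.07-fold lower) and 634 and 631 CPM in the other 2 libraries, so it was low in the pair alone. The ERK phosphatase DUSP4 had 63.3 and 57.6 CPM against 99.5 to 138 CPM, and the AP-1 subunit FOSL1 had 489 and 644 CPM against 741 to 1084 CPM. DUSP6 and SPRY4, other feedback genes of the pathway, overlapped, at 46.8 and 59 CPM against 44 to 63.3 CPM and 94.1 and 93 CPM against 83.3 to 108 CPM. Of 11 measured ERBB and MET receptors and ligands 3 were higher (27.3%, against 5.57% of all genes) and 2 lower (18.2%, against 2.92%). The ligands NRG1 (2.32 and 2.83 CPM against 0.542 to 1.68 CPM) and NRG2 (1.75 and 2.77 CPM against 0.572 to 1.13 CPM) were higher, both at low levels. Amphiregulin (AREG), a ligand of EGFR, had 9.1 and 12.8 CPM against 18.3 to 31.2 CPM (2.3-fold lower), and the other 2 libraries had 8.73 and 9.6 CPM. In the WNT pathway 8 of 31 members were higher (25.8%, against 5.57% of all genes and 15% of those in the lowest CPM quintile). In that list 1 was lower, and the median was 0.09. AXIN2, a feedback target of β-catenin, had 10.1 and 5.13 CPM against 1.42 to 4.3 CPM, and WNT5B had 6.14 and 4.31 CPM against 1.63 to 3.02 CPM. The largest difference was that of TCF7L1, a DNA-binding partner of β-catenin, but at 0.717 and 0.672 CPM against 0.0588 to 0.189 CPM.

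Of 32 genes of cholesterol and fatty acid synthesis 4 were lower (12.5%, against 2.92% of all genes) and 0 higher, 29 lay below 0 and the median was -0.26. SREBF2, the master regulator of sterol genes, had 45.5 and 37.5 CPM against 65.4 to 89.4 CPM. INSIG1, which retains the SREBP factors in the ER, overlapped (13.2 and 9.47 CPM against 10.5 to 57 CPM), and for the sterol carrier STARD4 the sets nearly touched (4.68 and 2.91 CPM against 4.68 to 12.2 CPM). Of 77 cytosolic ribosomal protein genes 70 lay above 0 (median 0.18). In that list 2 were called higher (2.60%, against 5.57% of all genes) and 1 lower (1.30%, against 2.92%). The respiratory chain (0 of 57 called, median 0.10), the proteasome (0 of 31), ER chaperones (0 of 24) and chromatin repressors (0 of 34) gave no calls, beside 1.05% higher and 2.48% lower among genes of the highest CPM quintile. Metallothioneins, the metal-binding proteins of chromosome 16, were noticed after the values were seen. MT2A had 365 and 520.2 CPM against 148 to 236 CPM (2.23-fold higher), MT1E had 50.6 and 61.7 CPM against 12.6 to 26.7 CPM, and the other 2 libraries had 434 and 454 CPM for MT2A and 44.8 and 43.4 CPM for MT1E. Metallothionein genes are near-identical in sequence and can share reads.

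**Figure D4:**
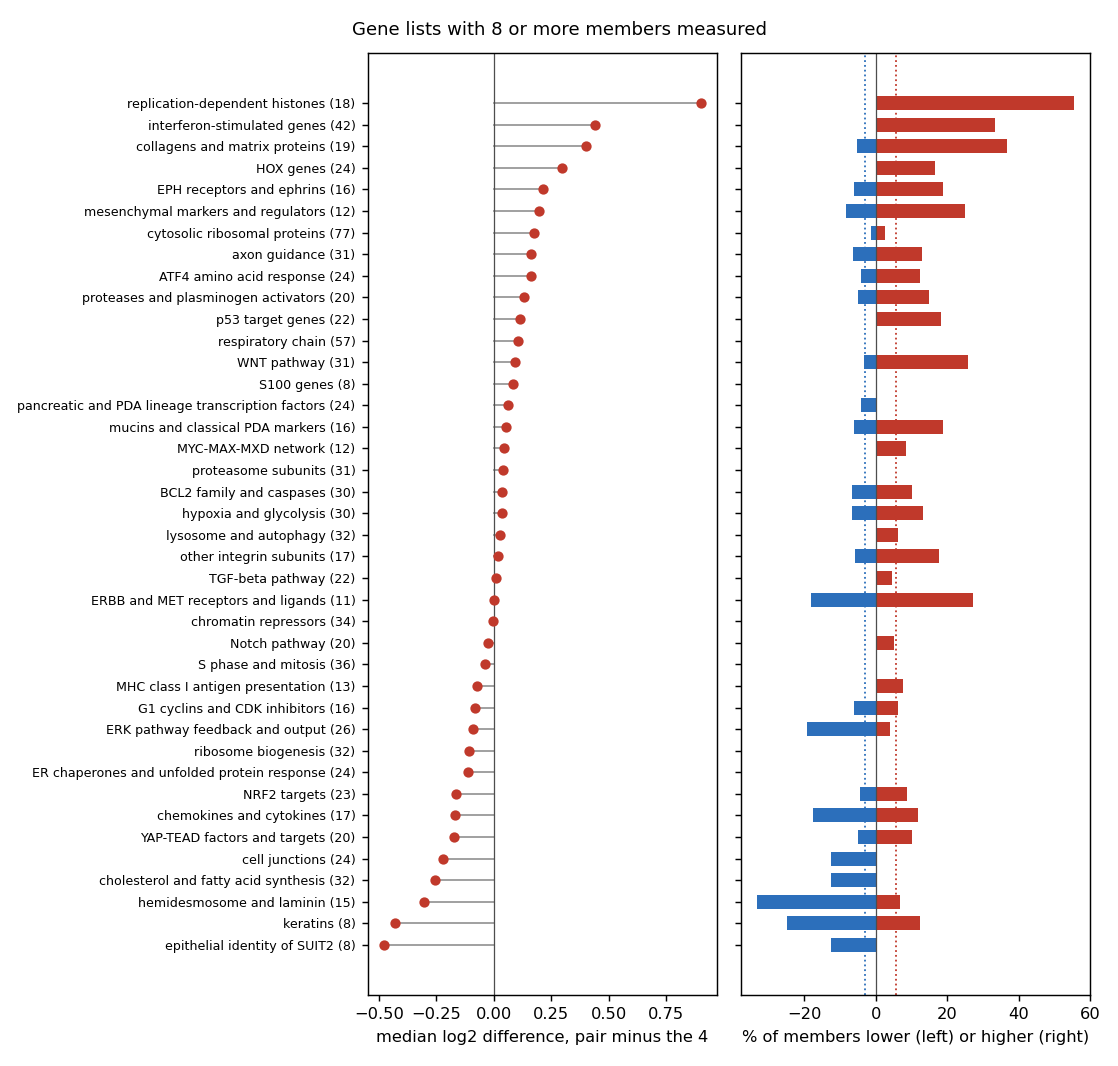
Gene lists with at least 8 measured members (number in brackets), ordered by the median log2 difference between the pair and the 4 comparison libraries (left), with the percentage of members called lower (blue) or higher (red) at right and dotted lines at 2.92% and 5.57% for all genes. Histones (median 0.90) and interferon-stimulated genes (0.44) lead on one end, and epithelial identity genes (-0.48) on the other.

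Along the genome there were stretches in which neighbouring genes differed together. The libraries were grouped on the counts of all genes, those of the stretches included, so this too is a description without a test. Among 241 windows of 5 Mb with at least 20 measured genes, the median log2 difference per window had a median of -0.01, with 5% to 95% of windows between -0.10 and 0.15. The highest was 0.63, for chromosome 12 between 55 and 60 Mb of GRCh37. Of its 80 genes 43 were higher (53.8%), 0 were lower and 76 lay above 0. Both libraries of the pair shared this, with medians over the stretch of 0.64 in shScr replicate 3 and 0.57 in shEN1 #1 replicate 1 relative to the mean of the 4 comparison libraries, which themselves lay between -0.06 and 0.10. The other 2 libraries lay between, at 0.35 and 0.36. In the rest of chromosome 12, outside 50 to 60 Mb, 6.61% of 575 genes were higher.

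Genes of this stretch belong to many of the groups above. CDK4, a kinase of the G1 phase, had 665 and 625 CPM against 378, 371, 338 and 407 CPM (1.73-fold higher). SHMT2, a mitochondrial enzyme of serine metabolism, had 668 and 616 CPM against 351 to 386 CPM, and the ribosomal protein gene RPS26 had 709 and 835 CPM against 423 to 531 CPM. The receptor ERBB3 had 133 and 92.3 CPM against 55.1 to 91.9 CPM, and the stress factor DDIT3 had 34.2 and 42.9 CPM against 16.6 to 23.6 CPM. STAT2 lies there too, as do the leading genes LRP1 and NXPH4, so these genes share their neighbourhood. The median of the interferon list without the genes of chromosomes 12 (50 to 60 Mb) and 19 (beyond 35 Mb) was 0.43. Nearby, between 54 and 55 Mb, 7 of 17 genes were higher (41.2%, against 5.57% of all genes), a stretch picked after its values were seen. Its median was 0.51, but 0.27 for the 8 genes with a mean of at least 5 CPM. The other 2 libraries were at 0.77 and 0.69 there. Between 53 and 54 Mb 1 of 22 genes was higher. The 7 genes included HOXC4, HOXC5 and HOXC6 of the HOXC cluster. HOXC4 and HOXC5 were at low levels (0.803 and 0.588 CPM against 0.189 to 0.50 CPM and 2.7 and 0.728 CPM against 0 to 0.647 CPM). HOXC6 had 4.65 and 5.63 CPM against 1.27 to 2.98 CPM and 4.19 and 5.13 CPM in the other 2 libraries. Without these stretches the median of the HOX list was 0.18 in place of 0.30.

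The second region was chromosome 19 beyond 35 Mb, where 74 of 476 genes were higher (15.5%), 5 were lower and 405 lay above 0. Its median was 0.31, but here the libraries of the pair differed, at 0.42 in shScr replicate 3 and 0.19 in shEN1 #1 replicate 1. The 4 comparison libraries ran from -0.06 to 0.12, the highest being shEN1 #2 replicate 2, and the other 2 libraries had 0.25 and 0.17. On the rest of the chromosome 16 of 478 genes were higher (3.35%) and 16 lower. TEAD2, a DNA-binding partner of YAP, lies in the region and had 18.9 and 17.6 CPM against 4.74 to 8.58 CPM. RPL18, a ribosomal protein gene of the region, went the other way, with 282 and 239 CPM against 385 to 481 CPM. Chromosome 12 between 50 and 60 Mb and chromosome 19 beyond 35 Mb together held 130 of the 798 higher genes and 7 of the 418 lower genes. Among the 13706 genes outside these wider limits 668 were higher (4.87%) and 411 lower (3.0%). DNA was not measured in these libraries. Ribosomal protein genes have many processed copies in the genome that can share reads.

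**Figure D5:**
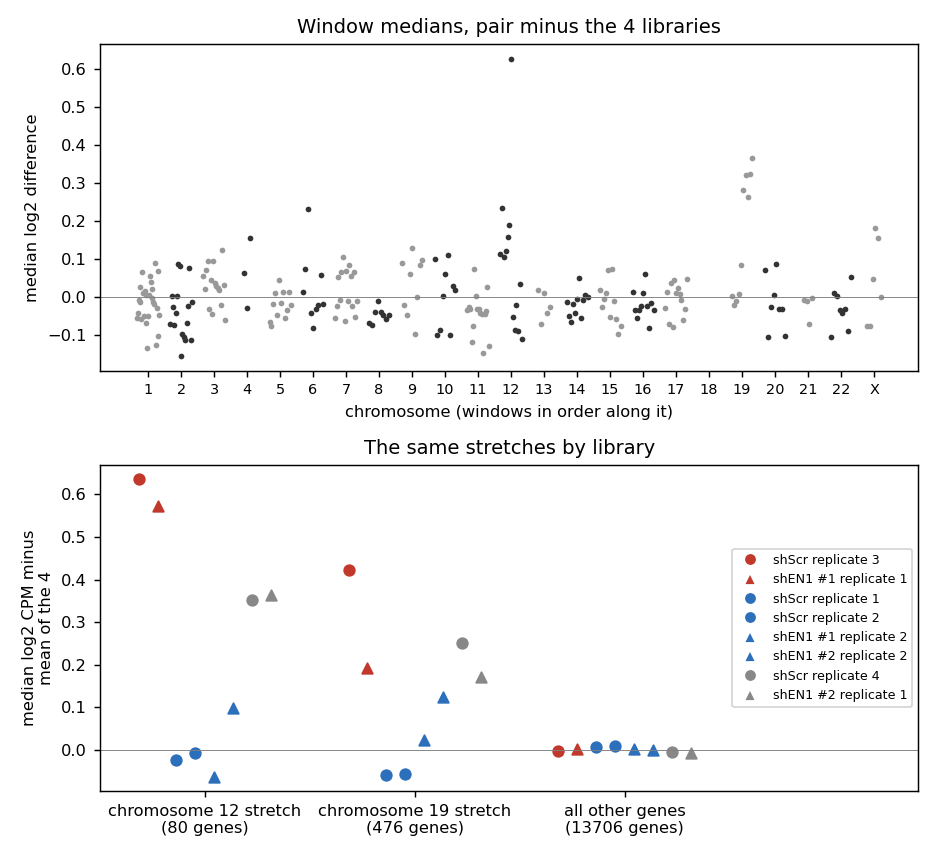
Top, the median log2 difference between the pair and the 4 comparison libraries in 241 windows of 5 Mb with at least 20 genes, by chromosome. Bottom, the median log2 CPM minus the mean of the 4 by library for the chromosome 12 stretch, the chromosome 19 stretch and all other genes, where the pair has 0.64 and 0.57 on chromosome 12 and 0.42 and 0.19 on chromosome 19, and all libraries lie near 0 for the other genes.

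Genes that were on in the pair and off in the 4 comparison libraries were rare. With at least 10 counts in both libraries of the pair and at most 1 in each of the 4, ATRNL1 and ITGA2B were found, and no gene met the opposite rule. ATRNL1, which encodes an attractin-like membrane protein, had 10 and 31 counts in the pair, 0 in each of the 4 and 42 and 44 in the other 2. ITGA2B, the platelet integrin αIIb, had 16 and 12 counts in the pair, 0 in each of the 4 and 14 and 18 in the other 2.

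Many defining markers of other cell types were at or near 0. Of 9 fibroblast markers 5 had 0 counts in all libraries (COL3A1, DCN, LUM, POSTN and THY1), and the summed level of the list was 2.86 to 4.28 CPM in the pair and 1.17 to 1.86 CPM in the 4 comparison libraries. Only COL1A1 of this list passed the filter, with 3.99 and 2.75 CPM against 1.02 to 1.83 CPM. Of 10 immune markers 4 were at 0 in every library (PTPRC, CD3E, CD3D and MS4A1). Their sum, 30.1 to 36.7 CPM in the pair and 21 to 26.3 CPM in the 4, was mostly CD68, a lysosomal protein (28.1 and 34.6 CPM against 16.7 to 24.1 CPM). Endothelial markers summed to 58.7 to 63.0 CPM in the pair and 37 to 63.1 CPM in the 4, mostly ESAM, with CDH5, KDR and TEK at 0. Acinar and islet markers stayed at or under 1.41 CPM in sum in these 6 libraries. In bulk RNA fewer cells of a type and less RNA per cell cannot be told apart.

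Since both sets hold equal numbers of each arm, the labels could be compared within the 6 libraries with the set as a term of the model, which asks whether shEN1 and shScr differ once the grouping is taken into account. Of 14333 genes 2 passed (edgeR's quasi-likelihood test, adjusted p below 0.05), and 108 had an unadjusted p below 0.05. VAMP7, a vesicle fusion protein whose gene has copies on X and Y that can share reads, had 8.52 CPM in shScr replicate 3, 16.2 in replicate 1 and 15.8 in replicate 2. In the 3 libraries labelled shEN1 it had 0.980, 1.56 and 1.51 CPM (log2 difference -3.30, standard error 0.22, edgeR adjusted p = 8.29e-06), so the arms did not overlap within these 6 libraries. The gene with the identifier Entrez 100507676, for which no symbol was found, had a log2 difference of 2.79 (standard error 0.37, edgeR adjusted p = 0.0170), with 10.8, 10.7 and 3.56 CPM in the libraries labelled shEN1 against 0.917 to 1.75 CPM. EN1 itself had a log2 difference of 0.40 (standard error 0.23, edgeR adjusted p = 1.00), ITGA6 of 0.08 (standard error 0.11, adjusted p = 1.00 in edgeR) and MXD4 of -0.36 (standard error 0.18, adjusted p = 1.00 in edgeR). Because the sets were formed on the same counts, the spread left for this test may be wrong. The 108 genes with an unadjusted p below 0.05 were a smaller share of the 14333 than the 0.05 expected without any difference. In some of the alternative fits the share was above 0.05, so it does not settle how strict the test was. The p-values measure the spread between these libraries, which may be technical. Without shScr replicate 3, shEN1 #1 replicate 1 or shScr replicate 2, 1 gene passed in each case, VAMP7, and in a fit of all 8 libraries 0 genes passed in edgeR, with 140 at an unadjusted p below 0.05.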

How the data were processed

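RNA-seq libraries of SUIT2 cells were compared. The authors deposited read counts per gene for each library as whole numbers without normalization. Their notes name HISAT2, featureCounts and the mouse build mm9, whereas the paper's methods give paired-end reads aligned to hg19 for human cells. The deposited identifiers match human genes, but the build behind the counts was not otherwise checked, and the annotation, versions and strand setting are not given in the sources used here, so overlapping and antisense genes could share reads. Of 25702 Entrez identifiers 23696 were matched to a RefSeq symbol, and those without one held at most 0.257% of a library.

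Genes were filtered with filterByExpr (minimum count 10) over all 8 libraries, scaled with TMM factors in edgeR 4.0.16 under R 4.3.3 and expressed as CPM and log2 CPM (prior count 2). A gene's difference is the mean log2 CPM of the pair minus that of the 4 comparison libraries. Labels were tested within the 6 libraries by glmQLFit (robust) and glmQLFTest with Benjamini-Hochberg adjustment, with DESeq2 1.42.0 and limma-voom 3.58.1 as alternatives. The test was tried on simulated counts. Gene positions are those of GENCODE lifted to GRCh37, and promoters those of RefSeq on GRCh38.p14.

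The libraries, the 45 gene lists and the tests were chosen with earlier results of these data known. The text names ITGA6, MXD4 and EN1, the 15 largest differences in each direction among genes called at 1.5-fold with a mean of at least 5 CPM, the 3 largest differences of the lists described gene by gene and the genes that passed the label test. Other genes named, ATRNL1, ITGA2B and the metallothioneins included, were chosen after their values were seen. Of the lists, those with results that bear on the text are described there. The figure of lists gives the rest that have at least 8 measured members. The list of nuclear long RNAs, with 6 measured members, is in neither. Some genes of the lists count in the totals but are not reported here by name.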

Additional observations from a re-analysis of the deposited data

Results flagged for a closer look

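Among 68 sets of 4 values (the library totals, the TMM factors, and the CPM of ITGA6, MXD4, EN1 and the 30 leading genes, each over the 4 shScr libraries and over the 4 comparison libraries), 4 held a library far from the other 3, a share of 5.88%, where chance gives about 1 in 20. In each of them shScr replicate 3 stood below the other libraries labelled shScr. It had 10.8 CPM of PSMD10 against 46.0 to 58.3 CPM, 11.9 CPM of CABLES2 against 31.8 to 35.3 CPM, 23.8 CPM of STAMBPL1 against 61.7 to 73.4 CPM, and 20.1 CPM of DENND6A against 50.6 to 60.6 CPM. These genes were named for their difference between the pair and the 4 comparison libraries, so shScr replicate 3 was expected to be low in them and the gaps are no independent sign.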

How the results depend on the processing

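No called gene among those named, and neither stretch, changed sign under the alternatives run, and the list medians given for histones, interferon-stimulated genes, collagens and matrix proteins, HOX genes, cell junctions, cholesterol synthesis, hemidesmosome and laminin genes and epithelial identity kept theirs, while those of the WNT, MYC network and S phase lists changed sign in at least 1 alternative. The count of genes called higher and lower was 386 and 107 at a 2-fold threshold, and 258 and 269 for genes with a mean of at least 5 CPM, an alternative chosen after seeing the data. With each library left out in turn it ran from 862 to 1468 higher and from 453 to 883 lower, where with 1 library left in the pair fewer values have to lie outside the range of the 4. Other scalings, filters and prior counts, and leaving out the stretches of chromosomes 12 and 19 (chosen after seeing the data), kept both counts within 1.5 times. The scalings moved the median of all genes by at most 0.03 on the log2 scale. The median of chromosome 19 beyond 35 Mb was 0.19 without shScr replicate 3 and 0.42 without shEN1 #1 replicate 1.

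Between labels within the 6 libraries, 1 gene passed in limma-voom, 4 without a filter, 1 without the set as a term and 0 in the fit of all 8 libraries (140 at an unadjusted p below 0.05), and 1 to 2 passed with each library left out, while DESeq2 gave 2. The cause was not tested. With the replicate number as a block 2 genes passed, VAMP7 and ASMTL, in a fit with 1 residual degree of freedom. The same-numbered libraries of the arms had correlations of -0.193 to 0.119 after the mean of each label was removed. With so few such pairs, whether same-numbered libraries shared a culture or batch could not be told. Depth was similar in all libraries, but most genes called higher are measured at a few CPM.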
